A study of Mus musculus with 6 samples.

Results

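The comparison described here asks which genes differed between control and SPT6 siRNA in their fold induction by interferon-beta (IFN-beta), as opposed to their level. For every gene the response to IFN-beta with control siRNA was subtracted from the response with SPT6 siRNA on a log2 scale, so that a negative value, called here a lower difference of responses, means a smaller fold induction after SPT6 knockdown. All 6 of the 6 libraries of the series entered it. They came from NIH3T3 cells, a line of mouse embryonic fibroblasts, transfected with control siRNA or siRNA against SPT6 (gene Supt6) for 48 h, and the RNA was sequenced. For each siRNA there was 1 untreated library (0 h) and 2 libraries of cells exposed for 4 h to 100 units/ml of IFN-beta, numbered 1 and 2, and both untreated libraries carry number 1. No library of cells kept for 4 h without IFN-beta was analysed here, so an effect of IFN-beta and one of the passing 4 h cannot be told apart. The labels do not say whether the numbered libraries are separate cultures, and the p-values below reflect no more than the spread among libraries, possibly technical.

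IFN-beta binds the receptor chains IFNAR1 and IFNAR2, whose kinases JAK1 and TYK2 phosphorylate STAT proteins. With IRF9 these form the complex ISGF3, which binds interferon-stimulated response elements (ISREs) in the promoters of interferon-stimulated genes, many of them almost silent until the signal arrives and then transcribed strongly. SPT6 is a histone chaperone that travels with elongating RNA polymerase II and helps to keep nucleosomes in place behind it.

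The files held between 7935961 and 17596498 counts in genes per library. Of 24062 genes, 13185 had enough counts to be tested. Supt6 itself, on chr11:78206746-78245987 (GRCm38, minus strand), was at 175 CPM (counts scaled to the size of the library) in the untreated control library and 101 CPM in the untreated SPT6 siRNA library. After IFN-beta it was at 177 and 189 CPM with control siRNA, against 108 and 88.4 CPM with SPT6 siRNA. Every SPT6 siRNA library was below every control library, and the difference of responses of Supt6 was -0.11 ± 0.30 (log2, SE), so its lower level showed at both times. All 14 fibroblast markers were measured, with summed levels of 17900 to 21700 CPM in control and 14700 to 17800 CPM in SPT6 siRNA libraries. The summed macrophage markers were at 7.73 to 11.9 CPM with control siRNA, against 16.8 to 19.3 CPM with SPT6 siRNA, with Tyrobp at 0 in all libraries. The summed adipocyte markers were at 119 and 81.8 CPM untreated with control and SPT6 siRNA, at 64.7 and 61.9 CPM in number 1 after IFN-beta and at 34.6 and 31.4 CPM in number 2. Single genes carried much of the macrophage and adipocyte sums. Cd68 was at 2.1 to 2.58 CPM with control siRNA, against 6.8 to 10.2 CPM with SPT6 siRNA. Lpl was at 117 and 78.8 CPM untreated with control and SPT6 siRNA. Under 1 CPM in every library were 6 of the 11 macrophage markers present and 5 of the 7 adipocyte markers. The sums of the endothelial, epithelial, muscle and lymphocyte lists stayed at or below 14.9 CPM, with Epcam, Myod1 and Cd3e at 0 throughout. The part of these marker levels in the results was not tested, and fewer cells of a type and less RNA per cell cannot be told apart in bulk RNA.

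The interferon-stimulated promoters below are shown because their genes frame the result. By its values Ifit1 had a smaller fold induction with SPT6 siRNA. Ifit3 was lower at both times, but for Ifit3 and Cxcl10 the untreated counts were too few to separate induction from level. Each is the 230 bases from 250 to 21 bases before the RefSeq start (GRCm38.p6), read 5′ to 3′ on the strand of the gene. Capitals mark matches to the ISRE core, searched as GAAA, any 2 bases and GAAA on both strands from 250 bases before to 50 after the start; a match on the reverse strand reads TTTC at its ends, and no match overlapped another. Ifit1 lies at chr19:34640639-34640868 (plus strand), Ifit3 at chr19:34583279-34583508 (plus strand) and Cxcl10 at chr5:92348910-92349139 (minus strand).
Ifit1: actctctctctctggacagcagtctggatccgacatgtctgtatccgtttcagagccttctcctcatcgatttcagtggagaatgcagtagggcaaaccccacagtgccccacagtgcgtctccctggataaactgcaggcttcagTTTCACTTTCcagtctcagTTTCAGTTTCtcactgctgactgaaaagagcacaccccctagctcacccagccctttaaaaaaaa
Ifit3: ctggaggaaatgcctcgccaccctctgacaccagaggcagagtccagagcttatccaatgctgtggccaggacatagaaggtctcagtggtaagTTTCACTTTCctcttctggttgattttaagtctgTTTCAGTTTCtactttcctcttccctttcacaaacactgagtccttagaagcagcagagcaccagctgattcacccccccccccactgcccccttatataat
Cxcl10: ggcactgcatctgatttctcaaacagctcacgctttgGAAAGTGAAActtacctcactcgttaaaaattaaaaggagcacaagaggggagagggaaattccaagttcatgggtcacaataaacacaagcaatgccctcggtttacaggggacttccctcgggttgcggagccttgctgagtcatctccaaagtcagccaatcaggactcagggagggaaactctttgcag
The Ifit1 and Ifit3 promoters hold 2 matches each, the first starting at position -104 in Ifit1 and -156 in Ifit3, and the Cxcl10 promoter holds 1 at -213. Among genes tested here with a RefSeq promoter, 352 of 9816 (3.59%) held such a match, against 51 of 108 interferon-stimulated genes (47.2%). The median difference of responses was -0.43 over the 51 interferon-stimulated genes with a match, 45 of them below 0, and -0.27 over the 57 without, 44 of them below 0. Genes with and without the element were thus both mostly below 0. For the gamma-activated sequence TTCNNNGAA (both strands) the medians were -0.47 over 19 genes with a match and -0.30 over 89 without.

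No gene passed the test of the difference of responses itself. The edgeR quasi-likelihood test called 0 of 13185 genes at an adjusted p of 0.05 (0%), the smallest adjusted p being 0.9999. At an unadjusted p under 0.05 it gave 11 lower genes (0.0834%) and 39 higher genes (0.296%). DESeq2 and limma-voom also called 0 genes, with 2 and 7 lower and 5 and 35 higher genes at an unadjusted p under 0.05. Only 2 residual degrees of freedom were left, which the IFN-beta libraries supplied, and the fit takes each untreated library to vary as those do. For a single value of 2 against 2 libraries the exact two-sided permutation p cannot go below 0.333. All genes are therefore described below by their values in each library, and none is said to have changed. A difference of responses with ± is the edgeR estimate and its SE, a pair of values is that within numbers 1 and 2, and a pair of CPM values after IFN-beta is in the order of the numbers.

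To separate induction from level, genes were sorted by the difference between siRNAs before IFN-beta and after it, with a boundary of 0.5 on the log2 scale. Of the 13185 genes, 207 (1.57%) were within 0.5 of each other when untreated and had a difference of responses below -0.5 in both numbers, and 285 (2.16%) had one above 0.5. These are called lower and higher induction. By contrast 141 genes (1.07%) were lower and 272 (2.06%) higher by more than 0.5 in the untreated and both IFN-beta pairs, with a difference of responses within 0.5, and these are called differences in level. A further 304 (2.31%) and 337 genes (2.56%) were lower or higher only when untreated, and 11639 (88.3%) met none of these. The split moved with the scaling: by library size alone, lower and higher induction held 149 and 328 genes, and a lower and a higher level 93 and 356. Independently of that boundary, the responses of the 2 SPT6 siRNA libraries lay below those of both control libraries for 2482 genes (18.8%) and above them for 2389 (18.1%).

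Interferon-stimulated genes stood mostly on the side of smaller induction. Of 170 genes on the list, 150 were tested, and their median difference of responses was -0.37 (quartiles -0.66 and -0.09), which is a ratio of inductions of 0.774, against -0.01 over all genes tested. It was below 0 for 121 of the 150 and above 0 for 29, where 51.3% of all genes were below 0. Their median untreated difference between siRNAs was 0.00, and their median difference after IFN-beta was -0.38 in number 1 and -0.46 in number 2. Lower induction held 25 of the 150 (16.7%, against 1.57% of all genes). Of those 25, 4 had 0 counts in both untreated libraries, among them Oas2 and Oasl1. Their untreated difference is 0 by construction, so the class rests on the IFN-beta levels alone. A lower level held 7 of the 150 (1.07% of all genes), a higher level 0 (2.06%) and higher induction 1 (2.16%). Scaled by library size alone, lower induction held 19 of the 150 and a lower level 3. The responses did not overlap, with SPT6 siRNA lower, for 37 of the 150 (24.7%, against 18.8% of all genes), and with SPT6 siRNA higher for 7 (4.67%, against 18.1%). None of them was called by edgeR.

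The size of this shift was smaller than the difference between the 2 numbers. The median response of the list was 3.12 and 2.39 in control libraries against 2.82 and 1.80 in SPT6 siRNA libraries, so that libraries numbered 2 were lower by 0.72 and 0.82 at the median gene. Within number 1 the median difference of responses was -0.37 and within number 2 it was -0.41; both values use the same untreated libraries. Leaving out 1 IFN-beta library at a time breaks the match of numbers. It then was 0.04 without control number 1, -0.82 without SPT6 siRNA number 1, -0.70 without control number 2 and -0.02 without SPT6 siRNA number 2. The direction of the list therefore rests on libraries being compared within a number.

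**Figure D1:**
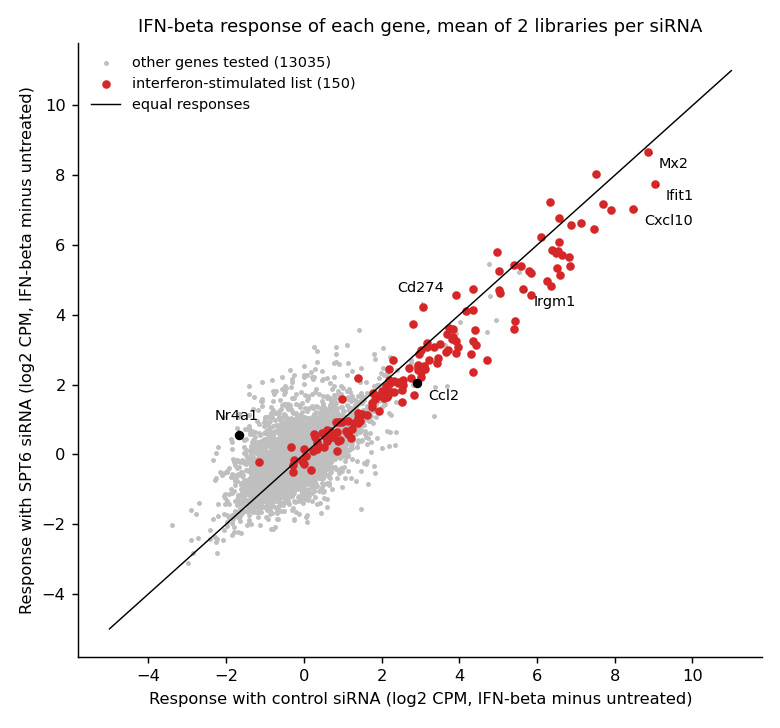
Mean response to IFN-beta (log2 CPM after IFN-beta minus untreated, 2 libraries per siRNA) with control siRNA on the x axis and SPT6 siRNA on the y axis, 1 point per gene tested. Most points of the interferon-stimulated list (red, 150 genes) lie under the line of equal responses, with 121 of them having a difference of responses below 0.

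Most strongly induced genes start from few counts, which limits how well induction and level can be told apart. Of the 25 interferon-stimulated genes with lower induction, 8 had 3 or fewer counts in an untreated library and 12 had 20 or more in both. Where the 95% exact interval of the untreated difference (counting error only) was set beside the values after IFN-beta, 40 of the 150 interferon-stimulated genes were below that interval in both numbers (26.7%, against 9.77% of all genes) and 2 were above it (1.33%, against 7.21%). Among the 93 members with at least 20 counts in both untreated libraries the median difference of responses was -0.35, with 82 below 0 (88.2%), 37 below the interval (39.8%) and 12 with lower induction (12.9%). Over all 11287 genes with such counts the corresponding values were -0.02, 53.6%, 11.2% and 1.3%. Of the 25, 8 were below the interval in both numbers, among them Ifit1, Irgm1, Xaf1, Tap2, Tor3a, Parp9 and Parp10, which are described with their families.

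The receptor and its kinases had small differences of responses. The signalling list of 23 genes had a median difference of responses of -0.03, with Ifnar1 at 0.01, Ifnar2 at -0.08, Jak1 at 0.07 and Tyk2 at 0.09, with SEs between 0.29 and 0.44. Stat2, a subunit of ISGF3, was at 29.8 and 28.3 CPM untreated with control and SPT6 siRNA. After IFN-beta the control libraries held 273 and 193 CPM of Stat2, against 205 and 138 CPM with SPT6 siRNA. It was lower with SPT6 siRNA in each number, and its difference of responses was -0.37 ± 0.46, between -0.72 and -0.08 with 1 library left out. Irf9, the DNA-binding subunit, was lower by 0.28 untreated and by 0.43 and 0.31 after IFN-beta, so that its difference of responses was near 0 (-0.09 ± 0.47).

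Among the other interferon regulatory factors and the feedback genes the untreated levels carried much of the difference. Irf1, an activator of many interferon-stimulated genes, was at 30.2 CPM untreated with control siRNA, against 42.6 CPM with SPT6 siRNA, at 90.5 and 92.0 CPM after IFN-beta with control siRNA, against 90.6 and 81.3 CPM with SPT6 siRNA. The IFN-beta levels were close, and the difference of responses of -0.58 ± 0.30 (edgeR unadjusted p = 0.09312) came with the higher untreated level. Socs1, an inhibitor of the JAK kinases, was higher untreated by 0.41 and had differences of responses of -0.58 and -0.34 within the numbers. Irf7, a factor that amplifies interferon production, had 13 and 3 untreated counts and differences of responses of 0.86 and 0.77, with an untreated interval of -4.02 to 0.29. Usp18, a protease that removes ISG15 and restrains the receptor, had 30 and 13 untreated counts and was at 251.2 and 128.8 CPM after IFN-beta with control siRNA, against 184 and 92.5 CPM with SPT6 siRNA. Its differences of responses were 0.16 and 0.13, and the untreated interval of -1.72 to 0.32 was too wide to tell a level from an induction. Over the 9 regulatory factors the median was 0.02.

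The sensors of foreign RNA and DNA had a median difference of responses of -0.52 over 11 genes, of which 10 were below 0 (51.3% of all genes) and 4 had lower induction (36.4%, against 1.57% of all genes). With 1 library left out at a time it ran from -0.91 to -0.16. An untreated library held 3 or fewer counts for 3 of the 11, which limits how well induction and level can be told apart. Of those with lower induction, Ifih1 and Zbp1 had 2 counts in each untreated library and an untreated interval of -3.24 to 4.33. Over the 7 with 20 or more in both the median was -0.43. Ddx58, which encodes the RNA sensor RIG-I, was at 41.4 and 40.9 CPM untreated with control and SPT6 siRNA. Its levels after IFN-beta were 476 and 316 CPM with control siRNA, against 348 and 206 CPM with SPT6 siRNA, a difference of responses of -0.50 ± 0.55 that ran from -0.96 to -0.15 with 1 library left out. Untreated levels did not differ beyond counting error, and each IFN-beta level was lower with SPT6 siRNA in its own number. The PYHIN family, which includes DNA sensors of the nucleus and cytosol, had a median of -0.50 over 11 genes, between -0.79 and -0.16 with 1 library left out. The responses did not overlap for 5 of them with SPT6 siRNA lower (18.8% of all genes) and for 1, Mndal, with SPT6 siRNA higher (18.1% of all genes). Its member Ifi202b was at 104 and 107 CPM untreated. With IFN-beta it was at 1017 and 776 CPM with control siRNA, against 784 and 472 CPM with SPT6 siRNA, and the difference of responses was -0.55 ± 0.50, between -0.99 and -0.26 with 1 library left out.

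Ifit1 and Ifit3, neighbours on chromosome 19 whose proteins bind foreign RNA, had similar differences between siRNAs after IFN-beta and differed in their untreated counts. Ifit1 (chr19:34640871-34650009, plus strand) was at 2.14 CPM untreated with control siRNA, against 2.998 CPM with SPT6 siRNA, from 26 and 25 counts. After IFN-beta it was at 1724 and 833 CPM with control siRNA, against 1063 and 444 CPM with SPT6 siRNA. It was higher before and lower after IFN-beta with SPT6 siRNA, although the untreated interval of -0.36 to 1.34 includes 0. Its differences of -0.70 and -0.91 after IFN-beta lay below that interval. The responses of 9.55 and 8.50 against 8.39 and 7.13 do not overlap. The difference of responses was -1.25 ± 1.24 (edgeR unadjusted p = 0.3564), and it ran from -2.05 to -0.61 with 1 library left out. Ifit3 (chr19:34583531-34588731, plus strand) had 30 and 14 untreated counts, an untreated difference of -0.51 with an interval of -1.58 to 0.41, and differences of -0.67 and -0.92 after IFN-beta. After IFN-beta the control libraries held 494 and 190 CPM of Ifit3, against 311 and 100.4 CPM with SPT6 siRNA. Its difference of responses was -0.18 ± 1.85, and levels were lower at both times. The differences after IFN-beta lay inside the untreated interval, so a smaller induction and a lower level of Ifit3 were not distinguishable. Ifit2 gave -0.23 and Isg15, a ubiquitin-like modifier, gave -0.25, and both took the opposite sign when some libraries were left out. Rtp4, an antiviral chaperone, was lower by 0.56 untreated, on 29 and 13 counts, and by 0.53 and 0.59 after IFN-beta, nearly equal values whose untreated interval of -1.68 to 0.38 includes 0. Daxx, a chaperone of histone H3.3, showed the same with more counts: it was lower by 0.66 untreated (interval -0.97 to -0.36) and by 0.73 and 0.88 after IFN-beta. The 5 genes of the IFIT family had a median difference of responses of -0.28, from -1.13 to 0.22 with 1 library left out.

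Several classical antiviral genes had too few untreated counts for a fold induction to be compared at this depth. Mx2 had 1 and 0 untreated counts and Rsad2 (viperin) 0 and 1, while Oasl1 and Oas2, of the oligoadenylate synthetase family, had 0 in both. Cxcl10, a chemokine for T cells, had 3 and 4 untreated counts. Its levels after IFN-beta were 172 and 126 CPM with control siRNA, against 96.8 and 74.8 CPM with SPT6 siRNA, lower by 0.83 and 0.76. These values lay inside the untreated interval of -1.60 to 3.73, so a smaller induction and a lower level of Cxcl10 were not distinguishable. The 9 genes of the OAS list had a median difference of responses of -0.52, with a range of -1.27 to 0.20 when 1 library was left out.

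The interferon-inducible GTPases had the lowest median of the interferon-stimulated families. Over 18 genes of the IRG and GBP families, which attack vacuoles that hold microbes, it was -0.89. Of these, 14 were below 0 (51.3% of all genes) and 6 had lower induction (33.3%, against 1.57% of all genes). That class included Tgtp2, Gm12250 and Gm4951, with 2, 1 and 0 counts in each untreated library. For them induction and level cannot be told apart. The median stayed between -1.57 and -0.16 with 1 library left out. In 9 of the 18 an untreated library held 3 or fewer counts, too few to tell induction from level. The 4 with 20 or more in both had a median of -0.72. The median untreated difference of the 18 was 0.22, that is, towards higher with SPT6 siRNA, and 0.335 over those 4. At few counts such a value need not reflect a level: Tgtp2, with 2 counts in each untreated library, had 0.30. Irgm1 (chr11:48861968-48871683, minus strand) was at 12 and 16.4 CPM untreated, at 752 and 483 CPM after IFN-beta with control siRNA, against 534 and 362 CPM with SPT6 siRNA. The order of the siRNAs was the reverse of that in untreated cells, responses did not overlap, and the difference of responses was -0.92 ± 0.53 (edgeR unadjusted p = 0.1321). Gbp2 was at 8.55 and 16.2 CPM untreated, then at 260 and 114 CPM with control siRNA, against 196 and 74.7 CPM with SPT6 siRNA. Its difference of responses was -1.39 ± 1.13, to which the untreated difference of 0.91 (interval 0.54 to 1.30) contributed more than the differences of -0.41 and -0.61 after IFN-beta. Gbp7 had no such clear untreated gap, and its differences of responses were -1.02 and -1.29. Irgm2 and Igtp, both members of the IRG family, gave -0.54 and -0.45. With 1 library left out Irgm1 ran from -1.26 to -0.54, Gbp2 from -2.28 to -0.66, Irgm2 from -1.003 to -0.146 and Igtp from -1.15 to 0.13.

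**Figure D2:**
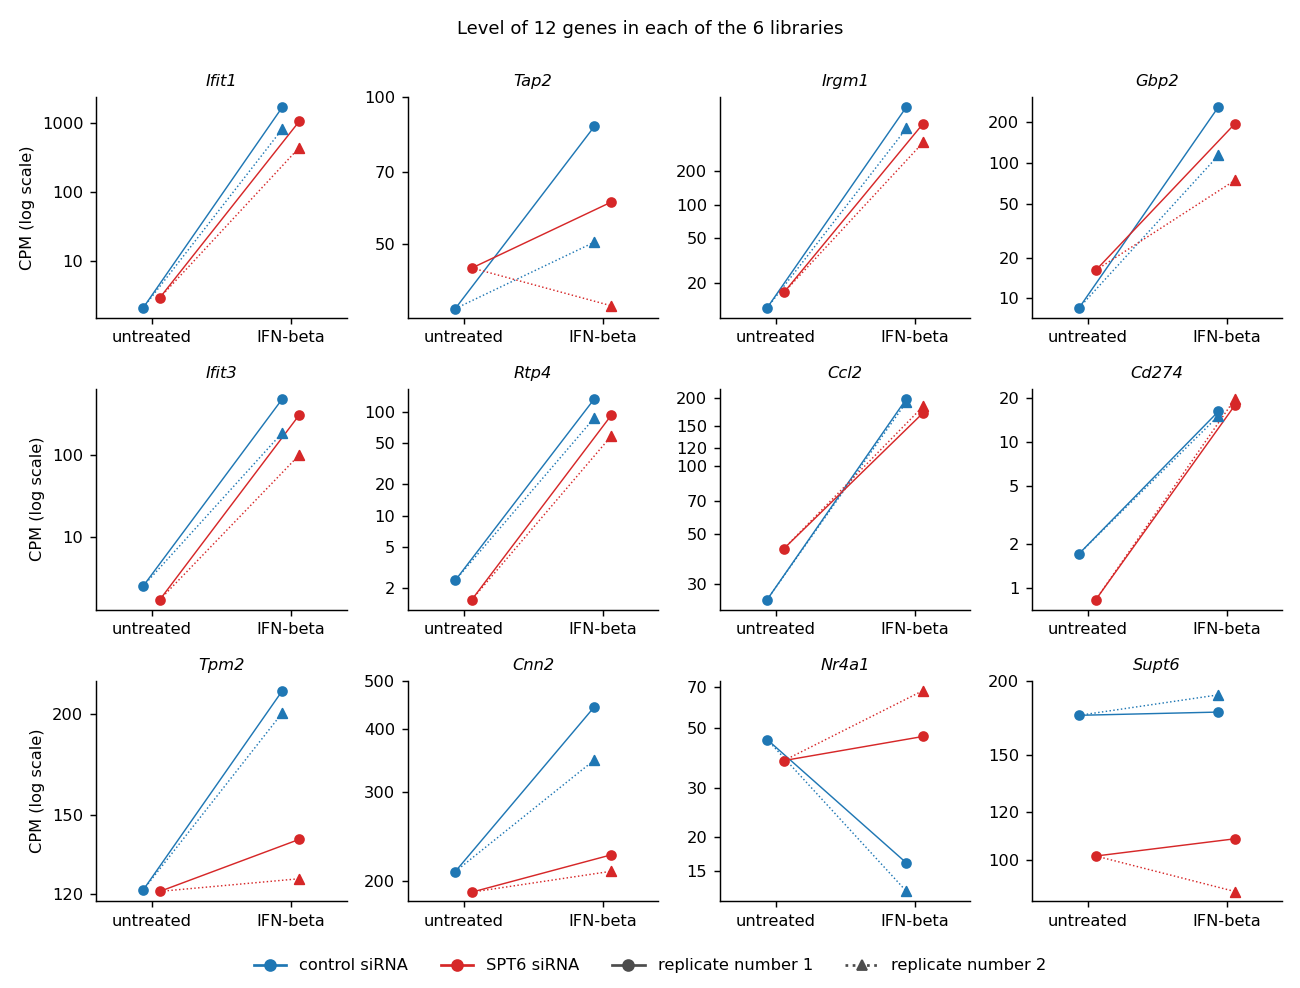
CPM (log axis) of 12 genes in each of the 6 libraries, untreated and after IFN-beta, with lines from the untreated library of each siRNA to its IFN-beta libraries of number 1 (circles, solid) and number 2 (triangles, dotted). Ifit1, Tap2 and Irgm1 start slightly higher and end lower with SPT6 siRNA, Ifit3, Rtp4 and Supt6 are lower at both times, and the lines of Nr4a1 run in opposite directions.

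Genes of antigen presentation on MHC class I had a median of -0.27 over 18 genes, which ran from -0.57 to 0.07 with 1 library left out, and Tap1, Tap2 and Psmb10 lay below that. Tap2, a subunit of the peptide transporter, was at 36.8 and 44.6 CPM untreated. It was at 87.0 and 50.4 CPM after IFN-beta with control siRNA, against 60.9 and 37.3 CPM with SPT6 siRNA, where it was below its own untreated level in number 2. Responses did not overlap, and the difference of responses was -0.76 ± 0.60, between -1.19 and -0.30 with 1 library left out. Tap1, the other subunit, had equal untreated levels (17.8 and 17.9 CPM) and differences of responses of -0.61 and -0.44, with an edgeR estimate of -0.55 that ran from -0.97 to -0.03 with 1 library left out. Psmb10, of the immunoproteasome, gave -1.045 and -0.997, with an untreated difference of 0.54 and a range of -1.57 to -0.49 with 1 library left out. B2m, the shared light chain, gave -0.21 and the heavy chain gene H2-K1 gave 0.19, and both took the opposite sign when some libraries were left out.

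The remaining antiviral effectors had values in the same range. Parp9 and Parp10, which transfer ADP-ribose, had differences of responses of -0.61 and -0.73, and of -0.72 and -0.61. Parp9 was at 14.5 and 16.8 CPM untreated, and after IFN-beta at 286 and 172 CPM with control siRNA, against 218 and 119 CPM with SPT6 siRNA. Xaf1, which promotes cell death, gave -0.71 and -0.96 without overlap of the responses, and Tor3a, an ATPase of the endoplasmic reticulum, gave -0.51 and -0.83. Mlkl, the effector of necroptosis, was at 41.99 and 42.33 CPM untreated. It was at 87.8 and 96.1 CPM after IFN-beta with control siRNA, against 66.8 and 60.1 CPM with SPT6 siRNA. Both control values were above both SPT6 siRNA values, on equal untreated levels, and the difference of responses was -0.55 ± 0.30 (edgeR unadjusted p = 0.1161), between -0.66 and -0.48 with 1 library left out. Pml, which organises nuclear bodies, gave -0.48 ± 0.29 and Adar, an RNA editing enzyme, gave -0.47 ± 0.36. Trim25, a ubiquitin ligase acting on RIG-I, and Zc3hav1, which binds viral RNA, were near -0.22 and -0.24. With 1 library left out Parp9 ran from -1.19 to -0.22, Parp10 from -1.10 to -0.22, Xaf1 from -1.32 to -0.48 and Tor3a from -1.23 to -0.25. Medians were -0.25 over 7 PARP and ZAP genes, -0.22 over 15 TRIM and nuclear body genes and -0.27 over 49 other effectors. All 3 turned sign when a library was left out, with ranges of -0.66 to 0.05, -0.57 to 0.11 and -0.67 to 0.04.

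A few interferon-stimulated genes lay on the opposite side, mainly through lower untreated counts. Cd274, which encodes the checkpoint ligand PD-L1 (chr19:29367455-29388095, plus strand), had 21 untreated counts with control and 7 with SPT6 siRNA, or 1.73 and 0.839 CPM. With IFN-beta it was at 16.11 and 15.02 CPM with control siRNA, against 17.8 and 19.7 CPM with SPT6 siRNA. Both SPT6 siRNA libraries were above both control libraries after IFN-beta, and the difference of responses was 1.30 ± 0.52 (edgeR unadjusted p = 0.04245), although the untreated interval of -2.52 to 0.25 includes 0. Mndal, a PYHIN gene, had 34 and 8 untreated counts and differences of responses of 1.03 and 0.81 at lower levels throughout. Il15, a cytokine for natural killer cells, gave 0.53 and 0.70 and was likewise lower with SPT6 siRNA at both times.

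Chemokine and cytokine genes had a median of -0.15 over 15 genes, between -0.19 and 0.13 with 1 library left out. Ccl2, which attracts monocytes (chr11:82035571-82037453, plus strand), was at 25.6 and 42.9 CPM untreated. It was at 198 and 191 CPM after IFN-beta with control siRNA, against 171 and 183 CPM with SPT6 siRNA. The untreated gap closed almost wholly after IFN-beta, so that the difference of responses was -0.88 ± 0.28 (edgeR unadjusted p = 0.01636). Ccl7, a related chemokine, gave -0.89 ± 0.46, but stayed higher with SPT6 siRNA at both times. Cxcl1, a neutrophil chemokine, was instead lower after IFN-beta than before it, at 12.24 and 11.03 CPM untreated, 3.61 and 4.75 CPM after IFN-beta with control siRNA, against 5.71 and 7.65 CPM with SPT6 siRNA, a difference of responses of 0.82 ± 0.51.

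**Figure D3:**
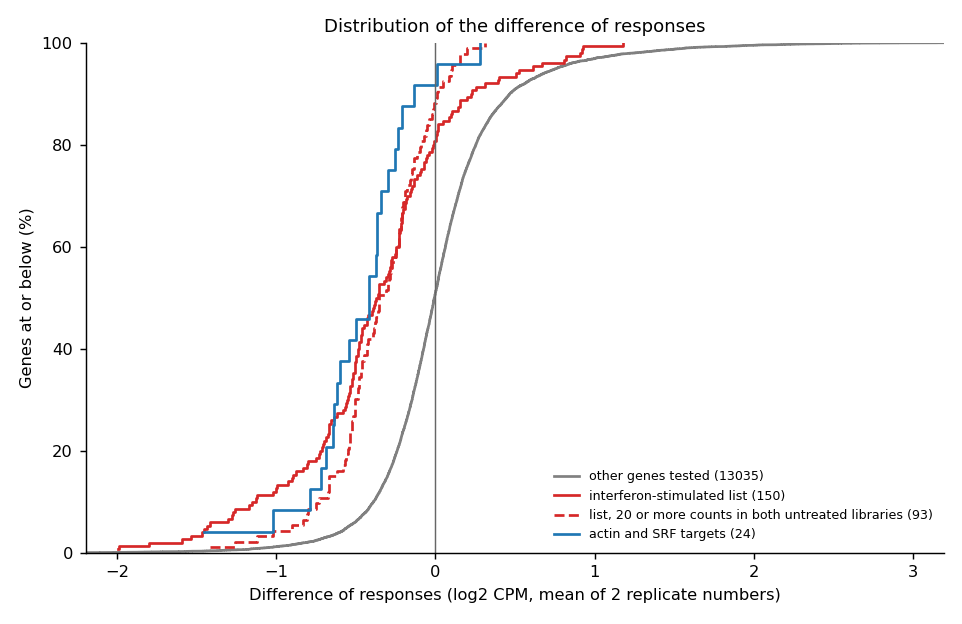
Cumulative distribution of the difference of responses (log2 CPM, mean of both numbers, x axis): the share of genes at or below each value (%, y axis) for the interferon-stimulated list, its 93 members with 20 or more counts in both untreated libraries, the 24 actin and SRF targets described further on, and all other genes tested. Both lists run to the left of the other genes over most of their range, and all curves overlap.

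Values below 0 were also in the majority among induced genes outside the list. In the 182 genes induced at least by 1 on the log2 scale in all 4 IFN-beta libraries, chosen on the responses themselves and so only described, the median difference of responses was -0.30, with 136 below 0 (74.7%). It was -0.49 over the 99 of them on the list and -0.16 over the 83 others, of which 52 were below 0 (62.7%). By mean response the medians were -0.21 for 52 genes between 1 and 2, -0.36 for 86 between 2 and 4 and -0.53 for 44 above 4. In 6087 genes whose response was within 0.5 in every library the median was -0.01, and in the 32 genes lower by 1 or more in all 4 it was 0.01. Among these 32, the 7 at an average log2 CPM of at least 3 had a median of -0.19, with 6 below 0.

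A further group with values below 0 was the actin cytoskeleton and targets of serum response factor (SRF), which couples actin assembly to transcription in fibroblasts. Of 25 genes 24 were tested, and their median difference of responses was -0.42, with 22 below 0. Their median untreated difference between siRNAs was -0.14, with 19 of the 24 below 0 (6880 of all 13185 genes). They were a median of 0.94 and 0.71 higher after IFN-beta than untreated with control siRNA, and 0.41 and 0.31 higher with SPT6 knockdown. Lower induction held 8 of the 24 (33.3%, against 1.57% of all genes), and 17 were below the untreated counting interval in both numbers (70.8%, against 9.77%). The median was between -0.63 and -0.27 with 1 library left out, so its sign did not turn. Fibroblast markers were also lower with SPT6 siRNA, as given above, with a median difference of responses of -0.11 over 14 genes, and their part in this was not tested. The Cnn2 promoter is shown with the CArG box, the SRF site, in capitals, from 250 to 21 bases before the RefSeq start (GRCm38.p6 chr10:79988350-79988579, plus strand).
Cnn2: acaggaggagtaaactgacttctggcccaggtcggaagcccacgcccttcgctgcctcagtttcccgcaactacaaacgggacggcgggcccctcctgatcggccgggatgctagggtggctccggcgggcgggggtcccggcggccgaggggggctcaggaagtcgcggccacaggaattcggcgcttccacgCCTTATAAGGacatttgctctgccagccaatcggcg
The CArG box of Cnn2 starts at position -56. A CArG box was in 8 of 20 genes of this list with a RefSeq promoter (40%), against 156 of 9816 genes tested (1.59%). It was in 0 of 108 interferon-stimulated genes, and the ISRE core was in 0 of the 20. The list was chosen to hold SRF targets, so its share of CArG boxes is no independent result.

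Cnn2, which encodes the actin-binding protein calponin 2 (chr10:79988584-79996062, plus strand), was at 208 and 190 CPM untreated with control and SPT6 siRNA. After IFN-beta it was at 443 and 348 CPM with control siRNA, against 225 and 209 CPM with SPT6 siRNA. The control libraries stood clearly above their untreated level and the SPT6 siRNA libraries little above theirs, and the difference of responses was -0.73 ± 0.33 (edgeR unadjusted p = 0.0643). Tpm2, a tropomyosin (chr4:43514711-43523765, minus strand), was at 121 CPM in both untreated libraries. It was at 214 and 201 CPM after IFN-beta with control siRNA, against 140 and 125 CPM with SPT6 siRNA. Its difference of responses was -0.64 ± 0.28 (edgeR unadjusted p = 0.05934), from equal untreated levels. Myh9, a nonmuscle myosin heavy chain, gave -0.75 and -0.54 within the numbers and was higher with SPT6 siRNA when untreated. Actb, the cytoplasmic actin, was at 4514 and 4485 CPM untreated, at 7474 and 7310 CPM after IFN-beta with control siRNA, against 5357 and 5642 CPM with SPT6 siRNA. Actg2, a smooth muscle actin, had a difference of responses of -1.74 ± 1.26 that rested on the 12.3 CPM of control number 1, and it was -0.59 without that library. Acta2, a smooth muscle actin of myofibroblasts, gave -0.999 and -0.573, and its edgeR estimate of -0.86 ran from -1.34 to -0.10 with 1 library left out. YAP and TEAD targets, a group that overlaps in biology with SRF targets, had a median of -0.24 over 16 genes.

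The genes with the smallest p on the higher side were led by the orphan nuclear receptors Nr4a1 and Nr4a2, immediate early genes that many stimuli switch on. Nr4a1 (chr15:101254269-101274795, plus strand) was at 45.2 and 37.9 CPM untreated with control and SPT6 siRNA. Its levels after IFN-beta were 16.04 and 12.64 CPM with control siRNA, against 46.4 and 68.2 CPM with SPT6 siRNA. The control libraries were below their untreated level and the SPT6 siRNA libraries above theirs, and the difference of responses was 2.25 ± 0.43 (edgeR unadjusted p = 0.001475), or 1.92 to 2.47 with 1 library left out. Nr4a2 was at 22.8 and 18.5 CPM untreated, at 8.66 and 8.67 CPM after IFN-beta with control siRNA, against 20.6 and 36.9 CPM with SPT6 siRNA. Its difference of responses was 2.03 ± 0.53 (edgeR unadjusted p = 0.007295), and here too control libraries were below and SPT6 siRNA libraries above their untreated level. Over the 29 genes of the immediate early list the median difference of responses was 0.07. Higher induction held 4 of them (13.8%, against 2.16% of all genes). A higher level held 2 (2.06% of all genes), and 3 were higher only when untreated (2.56% of all genes). The median difference of the list between siRNAs was 0.30 untreated and 0.36 and 0.47 after IFN-beta.

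Further genes of the 10 with the smallest p (average log2 CPM at least 3) were of mixed function. Rcan2, an inhibitor of calcineurin, gave 1.87 ± 0.56, and Bcl2l11, which encodes the cell death protein BIM, gave 1.12 ± 0.35. Bcl2l11 was at 40.9 and 30.9 CPM untreated, at 25.4 and 20.3 CPM after IFN-beta with control siRNA, against 35.6 and 39.7 CPM with SPT6 siRNA, so that it was lower than untreated with control siRNA and higher than untreated with SPT6 siRNA. Chka, choline kinase, gave 0.82 ± 0.31, from 45.8 CPM untreated to 69.0 and 77.6 CPM with SPT6 siRNA and little difference between times with control siRNA. Nfil3, a bZIP repressor, gave 0.92, Rb1, the retinoblastoma gene, 0.83 and Kdm7a, a histone demethylase, 0.77. For Nfil3 and Rb1 the control libraries were again lower after IFN-beta than before it. Nfil3 was lower with SPT6 siRNA too, at 38.25 CPM untreated and 33.95 and 25.49 CPM after IFN-beta.

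On the lower side, the 10 genes with the smallest p all belonged to those with a higher untreated level alone. These were Ccl2, Apol9b, Ccdc85b, Nle1, Stub1, Lsm7, Kctd10, Hmox1, Mt2 and Dohh. Hmox1, haem oxygenase, was at 30.8 and 55.5 CPM untreated, at 73.0 and 90.1 CPM after IFN-beta with control siRNA, against 84.6 and 90.3 CPM with SPT6 siRNA. The metallothionein gene Mt2 was at 43.8 and 74.2 CPM untreated and between 88.7 and 105 CPM in all 4 IFN-beta libraries. For both genes a gap between the untreated libraries closed after IFN-beta, and the differences of responses were -0.75 ± 0.32 and -0.71 ± 0.31. Kctd10 gave -0.65 and Ccdc85b -0.89 in the same way. Apol9b, an apolipoprotein L gene on the interferon-stimulated list, had 3 and 9 untreated counts and nearly equal IFN-beta levels, 19.5 and 15.97 CPM with control siRNA, against 19.5 and 15.92 CPM with SPT6 siRNA. As each siRNA has 1 untreated library, such genes rest on that pair of libraries.

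Mitosis, cholesterol synthesis, p53 target and replication-dependent histone genes had larger median differences between siRNAs when untreated than in response. Mitosis genes were lower in the untreated SPT6 siRNA library for 30 of 30 genes, by a median of 0.62, and had a median difference of responses of -0.02. Within the numbers this was 0.27 and -0.32, and 0 of the 30 met a class of lower or higher induction. The proliferation marker Mki67 was at 761 and 450 CPM untreated, at 557 and 782 CPM after IFN-beta with control siRNA, against 410 and 388 CPM with SPT6 siRNA, lower in every SPT6 siRNA library. Cholesterol synthesis genes were lower untreated by a median of 0.42 with a median difference of responses of -0.14 (-0.40 to 0.16 with 1 library left out), and p53 targets were higher untreated by 0.29 with 0.04. Among single genes chosen after their values were seen, Hbegf, a growth factor of the EGF family, was at 5.75 and 21.5 CPM untreated. It was at 18.5 and 40.7 CPM after IFN-beta with control siRNA, against 53.01 and 125.1 CPM with SPT6 siRNA, higher at both times, with a difference of responses of -0.31. Paf1, of the PAF elongation complex, was at 27.9 and 48.3 CPM untreated, at 30.6 and 35.1 CPM after IFN-beta with control siRNA, against 58.4 and 68.7 CPM with SPT6 siRNA. The elongation factor list had a median difference of responses of 0.11 over 34 genes, larger in size than its untreated median of -0.05. Replication-dependent histones were lower untreated by a median of 0.37 and had a median difference of responses of -0.28 over 54 genes, and within the numbers this was -0.02 and -0.43.

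**Figure D4:**
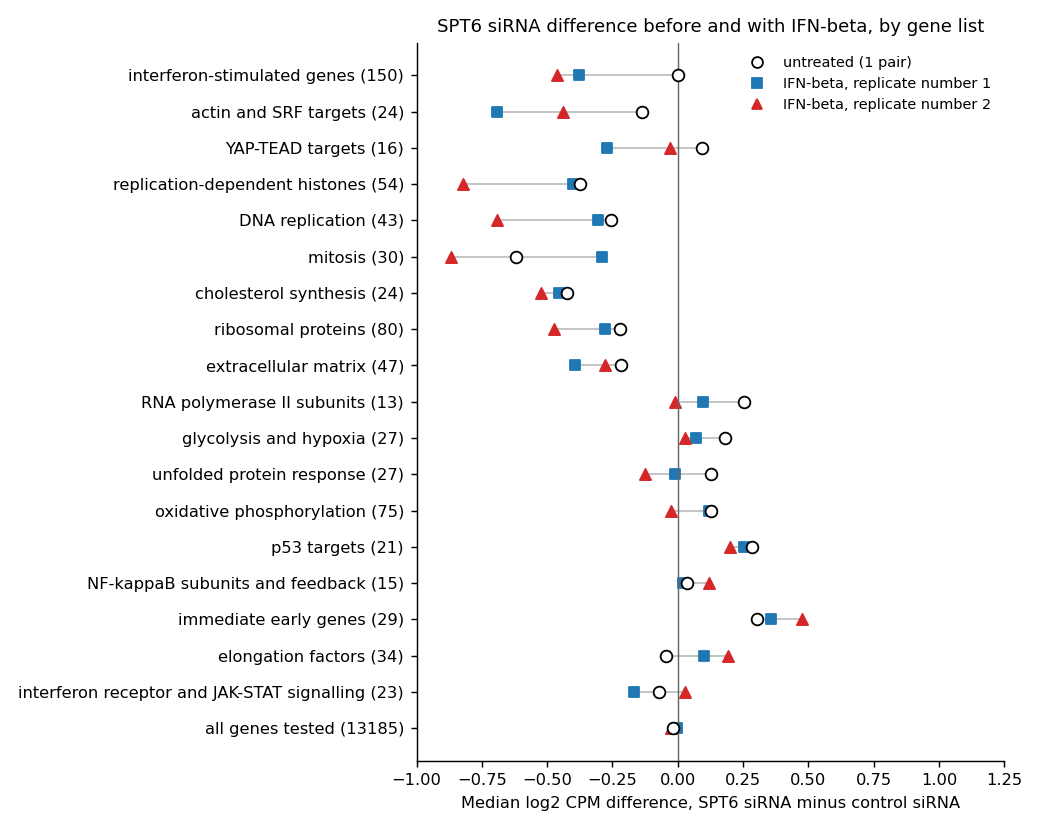
Median difference between SPT6 and control siRNA (log2) of each gene list, untreated and after IFN-beta in numbers 1 and 2. The interferon-stimulated list is at 0.00 and the actin list at -0.14 untreated, and both are lower after IFN-beta, while mitosis genes are already at -0.62 untreated.

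The difference of responses also varied with gene length over all genes. By quartile of genomic span, from up to 9.74 kb to above 55.1 kb, its median was -0.08, -0.05, 0.00 and 0.06, with 59.8%, 56.5%, 49.9% and 40.1% of genes below 0. The median untreated difference between siRNAs was 0.05, 0.01, -0.03 and -0.09 in the same quartiles, from 1 pair of libraries. After IFN-beta the median difference was -0.02, -0.02, -0.02 and -0.03, so the order by length lay in the untreated pair. In the difference of responses, interferon-stimulated genes did not follow this order. Their medians were -0.30 over 43 genes, -0.45 over 51, -0.34 over 36 and -0.21 over 12. In each quartile their median was below that of all genes.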

How the data were processed

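RNA-seq was done on 6 libraries of NIH3T3 cells in 4 groups. The deposited files hold whole-number counts per gene, made by the authors with TopHat2 2.1.0 and HTSeq 0.6.1p1 on mm10 (GRCm38), per the submitters' processing notes, which also list DESeq2. The strand setting of the counting is not given in the sources used here; overlapping genes on opposite strands cannot be told apart. Between 32.9% and 38% of the counted reads of a library were in genes, 33.8% to 37.5% in no feature and 27.9% to 31.3% not unique. These non-gene entries were left out of library sizes and tests.

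From the deposited counts, genes were filtered with filterByExpr (minimum count 10) and scaled by TMM. The difference of responses, SPT6 siRNA (IFN-beta minus untreated) minus control siRNA (IFN-beta minus untreated), was tested with edgeR 4.0.16 (R 4.3.3; robust quasi-likelihood fit over all 6 libraries, Benjamini-Hochberg adjustment over 13185 genes). Log2 CPM used a prior count of 2. The standard error of a gene was derived from its F statistic, as the size of the log2 difference divided by the root of F. Values within a number set each IFN-beta library of SPT6 siRNA against the control library of the same number, and subtract the difference of the untreated pair, which both numbers share, and a list's values are the means of the 2 numbers. Untreated differences carry 95% exact conditional binomial intervals, and a count of 0 is read as up to 3 counts; intervals cover counting error only.

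Alternatives were DESeq2 1.42.0, limma-voom 3.58.1, other scaling, filters, prior counts and fit options, a replicate block, each IFN-beta library left out, and other class boundaries. Settings chosen after seeing the data were the restriction to 20 or more untreated counts, the floor of 3 counts and the legacy fit. The untreated groups have 1 library each and could not be left out.

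Genes named were Supt6, the 10 with the smallest p in each direction (average log2 CPM at least 3), up to 4 members of each list and a panel, of which Ccl5 and Psmb8 had too few counts to be tested; Hbegf, Mki67, Paf1, Daxx and other list members outside this rule were chosen after their values were seen. The members, the lists and these tests were chosen with earlier results of these data known. Gene positions are GENCODE M21 (GRCm38), matched for 94.6% of symbols. Promoters are RefSeq (GRCm38.p6). A few genes of the lists are not reported here.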

Additional observations from a re-analysis of the deposited data

How the results depend on the processing

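No gene was called under DESeq2, limma-voom or any other fit tried, except that a replicate block on the number called 4 genes (Nr4a1, Nr4a2 and Rcan2 higher, Gbp2 lower). The labels give the number no meaning, and the deviations of same-numbered libraries correlated at 0.56 over 13185 genes. With only 2 numbers this does not show that they pair the libraries. The interferon-stimulated median of -0.37 was between -0.82 and 0.04 with 1 IFN-beta library left out, that of genes induced with both siRNAs was between -0.55 and -0.12, and the difference between the longest and shortest quartiles of genes (0.14) was between 0.10 and 0.18. None of these ranges left out an untreated library, and the order by gene length lay in the untreated pair. With boundaries of 0.3 and 1 in place of 0.5, lower induction held 484 and 39 genes, and 44 and 8 interferon-stimulated genes. Among genes named, the sign turned only when a library was left out, with ranges of -0.43 to 0.075 (B2m), -0.39 to 0.03 (Daxx), -0.20 to 0.65 (H2-K1), -1.08 to 0.37 (Hbegf), -0.89 to 0.20 (Ifit2), -1.25 to 0.68 (Ifit3), -0.14 to 0.17 (Ifnar1), -0.34 to 0.23 (Ifnar2), -1.15 to 0.13 (Igtp), -0.32 to 0.20 (Irf9), -1.04 to 0.39 (Isg15), -0.19 to 0.28 (Mki67), -1.44 to 0.077 (Oas2), -0.35 to 0.41 (Rtp4), -0.30 to 0.004 (Supt6), -0.069 to 0.285 (Tyk2) and -0.41 to 0.78 (Usp18). The cause was not tested. Depth limits genes with few untreated counts most: the list's median was -0.70 over its 33 members with 0 to 3 untreated counts and -0.30 over the 62 with 100 or more, where all genes gave 0.59 and -0.03.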

Other observations

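Further groups, not part of the interferon response, are given as values. Subunits of RNA polymerase II were higher by a median of 0.25 in the untreated SPT6 siRNA library and had a median difference of responses of -0.20 over 13 genes, between -0.25 and -0.10 with 1 library left out. Polr2l, which encodes a small subunit, was at 28.7 CPM untreated with control siRNA, against 136 CPM with SPT6 siRNA. After IFN-beta it was at 39.4 and 44.3 CPM with control siRNA, against 130 and 155 CPM with SPT6 siRNA, so every SPT6 siRNA library was above every control library and the difference of responses was -0.48 ± 0.31. Dusp4, a phosphatase that switches off ERK, was at 5.92 and 26.1 CPM untreated, at 21.2 and 53.9 CPM after IFN-beta with control siRNA, against 60.4 and 86.7 CPM with SPT6 siRNA. It was higher with SPT6 siRNA at both times, and its differences of responses were -0.61 and -1.43. Over 14 genes of ERK feedback the median was 0.02. DNA replication genes were lower untreated by a median of 0.26 and had a median difference of responses of -0.23 over 43 genes, with -0.05 and -0.36 within the numbers and a range of -0.52 to 0.09 with 1 library left out. Ribosomal protein genes were at -0.22 untreated and -0.14 in the difference of responses over 80 genes, and extracellular matrix genes at -0.22 and -0.13 over 47. With 1 library left out these medians ran from -0.40 to 0.06 and from -0.28 to 0.02.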
